A study of Mus musculus with 12 samples.

Results

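The genes described here are 33 components of the tight junction and of the epithelial polarity complexes. They were chosen by name from a table of 27179 genes: 14 claudins, occludin and its relatives Marveld2 and Marveld3, the adhesion receptors F11r and Cxadr, the plaque proteins Tjp1, Tjp3, Cgn, Cgnl1, Magi1 and Magi3, and the polarity proteins Pard3, Pard6b, Prkci, Patj, Mpp5, Crb3, Scrib and Llgl2. All 33 were found in the table. Of these, 30 reached a normalized count of at least 10 in at least 3 libraries and were tested, and Cldn6, Cldn10 and Cldn16 were not. Because the filter can be passed through 1 group alone, counts below refer to the tested genes.

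Polyadenylated RNA was sequenced from 12 libraries of mIMCD3 cells, an epithelial line from the mouse inner medullary collecting duct, in 4 groups of 3. The groups were an Actr3 knockout line treated with ciliobrevin D, which blocks the dynein motor, at 0.5 µM during starvation; a line with both Actr3 and Ift88 knocked out (dKO); the Actr3 knockout line without the drug (Actr3 KO); and wild type control cells. The protocol names a solvent control for the drug. No sample title names the solvent, so untreated here means only without the drug. All 4 groups were grown to confluence over 48 h with 10% fetal calf serum and then kept without serum for 24 h. Actr3 encodes a core subunit of the Arp2/3 complex, which nucleates branched actin, and Ift88 a part of the transport machinery that builds cilia. Each edited genotype is 1 line, so an effect of the edit and a difference between lines cannot be told apart. Another control column carries a line number of its own and was used as the third, unnumbered control library. No column carries the name of the remaining listed control sample. Whether the unnumbered library is that sample or another control line is not stated, so the control group may mix lines. Separate cultures are not stated for the replicates, and the spread behind the p-values may be technical.

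Reads counted on genes, as recovered from the normalized counts, came to 28902562 to 32544817 per library with ciliobrevin D, 30391369 to 32588460 in dKO, 31425219 to 34977447 in Actr3 KO and 37001577 to 38077987 in control. Values are normalized counts, which are read counts divided by 1 size factor per library and not by gene length. Actr3 averaged 1573 ± 180 normalized counts with ciliobrevin D, 871 ± 38.6 in dKO, 1218 ± 111 in Actr3 KO and 8336 ± 293 in control (SD, n = 3 each). Ift88 averaged 604 ± 29.8 in dKO and 617 ± 34.2 in Actr3 KO, so its mRNA level does not check the dKO label. The epithelial genes Epcam, Cdh1, Krt8 and Krt18 and the nephric genes Pax2, Pax8 and Cdh16 were present at 2868 or more normalized counts in every library. The collecting duct water channel Aqp2 was at 0 in 10 of 12 libraries. These genes come from a list of 24 nephron segment and collecting duct markers, of which 7 to 11 had a group mean under 10. The list summed to 123306 to 132185 normalized counts in control. The sum was 91920 to 95914 with ciliobrevin D, 85296 to 93294 in dKO and 91662 to 99098 in Actr3 KO. In Actr3 KO against control 2 of its 17 tested genes were higher and 10 lower, or 70.6% called against 69.8% of all genes. Of 24 markers of other cell types, 15 to 17 had a group mean under 10, and Slc34a1, Col1a2 and Col3a1 were at 0 throughout. Their summed level was 13298 to 13993 with ciliobrevin D, 8760 to 10099 in dKO, 19143 to 22255 in Actr3 KO and 13984 to 16473 in control, most of it from Lrp2, and its part in the results was not tested.

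Tight junctions seal the space between epithelial cells. Claudins form the strands, and each claudin sets how tight the strand is or which ions it lets through; occludin and the other MARVEL proteins join them, and the plaque proteins tie the strands to actin. The Par, Crumbs and Scribble complexes place the junction at the border between the apical and basolateral membrane. In the kidney, Cldn4 and Cldn8 belong to the tight distal nephron and collecting duct, whereas Cldn2 forms cation pores in the leaky proximal tubule.

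In Actr3 KO cells, the claudins moved most. Cldn4 averaged 19237 ± 1395 normalized counts in Actr3 KO and 51455 ± 6132 in control, and Cldn8 averaged 202 ± 36.8 in Actr3 KO and 907 ± 90.1 in control (SD, n = 3 each). Cldn2, Cldn3, Cldn9 and F11r were also lower, whereas the plaque genes Cgn, Cgnl1 and Tjp3 and the polarity genes Llgl2 and Patj were higher. Of the 30 tested genes, 7 were higher in Actr3 KO, 15 were lower and 8 did not pass the test (limma on log2 values, Benjamini-Hochberg adjusted p under 0.05). Among all 13939 genes tested 69.8% were called, 34.4% as higher and 35.4% as lower, and the share of junction and polarity genes, 73.3%, was close to that. At a change of at least 2-fold 6 of the 30 were called, against 12.1% of all genes, and the 6 were the lower claudins Cldn2, Cldn3, Cldn4, Cldn8, Cldn9 and Cldn15. With the median change of each chromosome removed, Cldn3 came to -0.97 on the log2 scale, under 2-fold. The libraries of the groups did not overlap for 22 of 30, against 73.3% of all genes. The median log2 fold change was -0.11 for the junction and polarity genes, or 0.00 under quantile normalization, and 0.00 over all genes. In bulk RNA, fewer cells that express a gene and less RNA per cell cannot be told apart.

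In dKO cells the same claudin family split. Cldn3 averaged 10499 ± 637 normalized counts in dKO and 2948 ± 225 in Actr3 KO, and Cldn23 averaged 258 ± 29.5 in dKO and 88.4 ± 10.5 in Actr3 KO. Cldn2, Cldn8 and the adhesion receptor Cxadr were lower in dKO. Against Actr3 KO, 10 genes were higher, 14 were lower and 6 did not pass, where 65.7% of all genes were called (32.5% higher and 33.2% lower). Of the 30, 7 changed at least 2-fold, against 9.51% of all genes: Cldn3, Cldn4 and Cldn23 were higher and Cldn2, Cldn8, Cldn19 and Cxadr lower. The groups did not overlap for 24 of 30, against 71.2% of all genes. The median was -0.12, against -0.01 over all genes. With the median change of each chromosome removed it was 0.03, against -0.01 over all genes.

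With ciliobrevin D, Actr3 KO cells had more Cldn3, Cldn4 and F11r mRNA and less Cldn8, Ocln, Cgn and Llgl2 mRNA than without it. Cgn, the plaque protein cingulin, averaged 6247 ± 237 normalized counts with the drug and 13215 ± 672 without. Against Actr3 KO, 9 genes were higher, 16 were lower and 5 did not pass, where 65.5% of all genes were called (32.7% higher and 32.9% lower). At least 2-fold changes were called for Cldn15, which was higher, and for Cldn8, Cgn and Llgl2, which were lower, 4 of 30 against 9.34% of all genes. The groups did not overlap for 27 of 30, against 68.1% of all genes. The median was -0.29, against -0.02 over all genes.

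Both edited and treated cells were also compared with control. In dKO 6 genes were higher, 15 were lower and 9 did not pass (67.1% of all genes called, 32% higher and 35.1% lower). Of the 30, 6 changed at least 2-fold, against 12.5% of all genes: Cldn23 was higher, and Cldn2, Cldn8, Cldn19, F11r and Cxadr were lower. The groups did not overlap for 23 of 30, against 72% of all genes. In ciliobrevin D-treated cells 5 were higher, 18 were lower and 7 did not pass (65.1% of all genes called, 33% higher and 32% lower). Cldn2, Cldn8 and Cldn9, all lower, changed at least 2-fold, 3 of 30 against 10.5% of all genes, and the groups did not overlap for 23 of 30, against 67.8%. The 5 comparisons share the Actr3 KO or the control libraries, so a value that is low in Actr3 KO alone gives a lower call against control and a higher call in each comparison with Actr3 KO as its base.

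**Figure D1:**
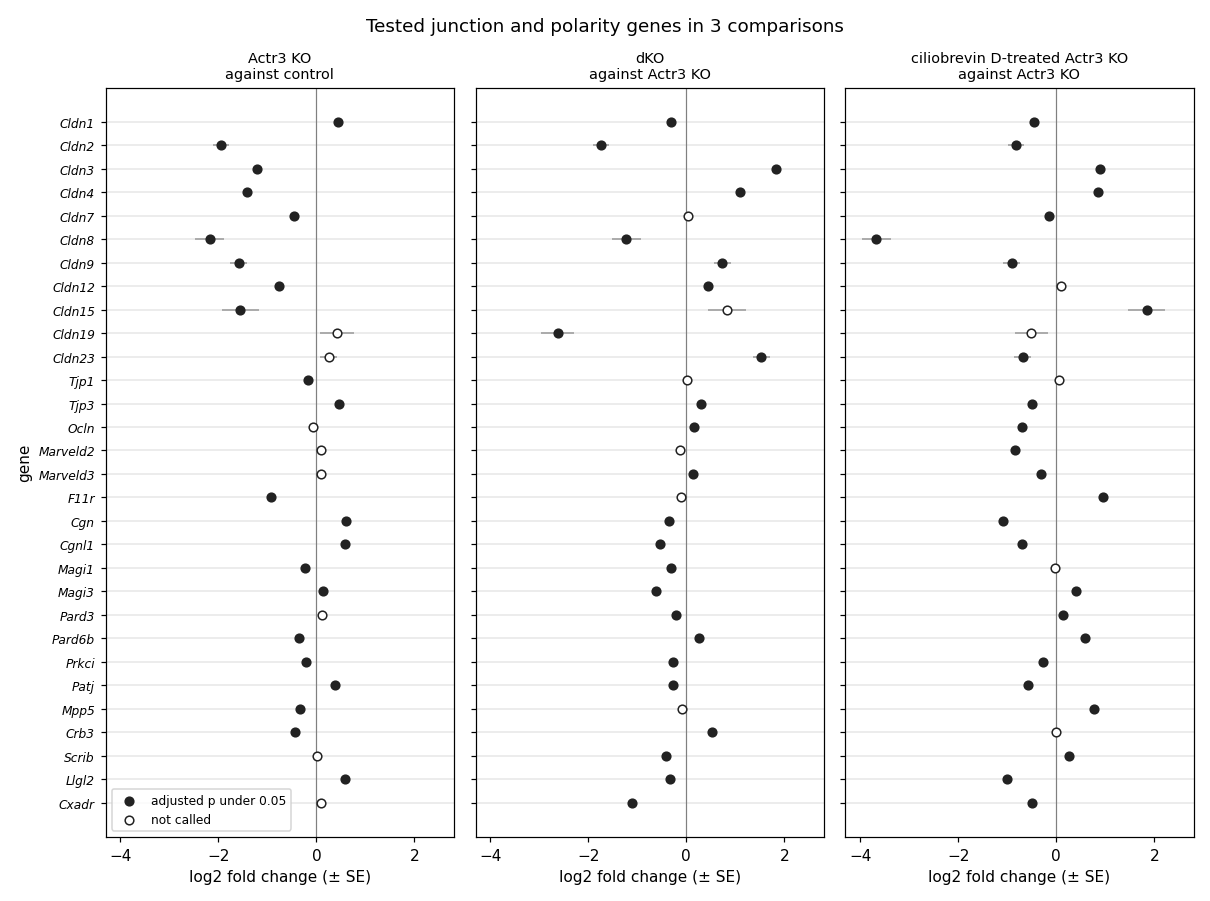
Log2 fold changes (± SE, limma) of the 30 tested tight junction and polarity genes in Actr3 KO against control, dKO against Actr3 KO and ciliobrevin D-treated Actr3 KO against Actr3 KO; filled points have an adjusted p under 0.05. The claudins spread most, with Cldn8 between -2.17 and -3.67 in the outer panels, whereas Tjp1 lies between -0.16 and 0.05 in all 3.

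Cldn4, a claudin that seals the strand in distal segments, was the most abundant of the 33 genes per kb of exon in every group. Its gene and that of Cldn3, another sealing claudin, lie about 41.1 kb apart on mouse chromosome 5 (GRCm38, Cldn4 at chr5:134945123-134946934 and Cldn3 at chr5:134986214-134987476). F11r, which encodes the adhesion receptor JAM-A, lies at chr1:171437561-171464593. The promoters of these 3 genes, chosen after their values were seen, are shown as examples of the 6 genes that were lower in Actr3 KO than in control and higher in treated than in untreated Actr3 KO cells. The other 3 were Pard6b, whose promoter also holds the E-box described next, Cldn15, whose promoter does not, and Mpp5. The share of all 13939 tested genes with both calls was not counted, so the pattern cannot be called particular to these 6. Taken singly, 35.4% of all genes had the first call and 32.7% the second, and both calls share the Actr3 KO libraries. Cldn3, Cldn4 and Cldn15 lie on chromosome 5, whose median log2 fold change was -0.24 in the first comparison and 0.22 in the second. The sequences, from RefSeq on GRCm38.p6, run from 250 bases before to 50 after the annotated start, 5′ to 3′ on the gene's strand; capitals mark the E-box CAGGTG, or CACCTG where it is read on the other strand, the form that Snail and Zeb repressors bind.
Cldn4 (chr5:134946885-134947184, minus strand): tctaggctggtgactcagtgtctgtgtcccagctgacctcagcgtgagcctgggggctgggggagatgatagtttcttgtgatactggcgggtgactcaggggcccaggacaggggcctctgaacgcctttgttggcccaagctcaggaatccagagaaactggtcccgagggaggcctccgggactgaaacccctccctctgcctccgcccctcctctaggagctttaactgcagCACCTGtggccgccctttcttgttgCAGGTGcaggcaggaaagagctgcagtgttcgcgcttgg
Cldn3 (chr5:134985964-134986263, plus strand): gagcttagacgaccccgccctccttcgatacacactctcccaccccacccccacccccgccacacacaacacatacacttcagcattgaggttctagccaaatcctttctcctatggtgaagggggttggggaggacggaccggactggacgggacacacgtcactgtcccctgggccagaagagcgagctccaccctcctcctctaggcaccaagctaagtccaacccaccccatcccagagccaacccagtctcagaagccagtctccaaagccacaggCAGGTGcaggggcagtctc
F11r (chr1:171437311-171437610, plus strand): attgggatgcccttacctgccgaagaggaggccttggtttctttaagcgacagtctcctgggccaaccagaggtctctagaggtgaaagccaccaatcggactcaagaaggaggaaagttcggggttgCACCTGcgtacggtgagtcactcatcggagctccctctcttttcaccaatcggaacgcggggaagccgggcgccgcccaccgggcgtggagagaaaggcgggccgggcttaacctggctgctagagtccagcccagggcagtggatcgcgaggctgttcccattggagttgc
In all, 25 of the 33 genes had a promoter in the RefSeq table, with 38 promoters between them; Cldn8, Cldn9, Cldn23, Marveld3, Mpp5, Scrib, Llgl2 and Cxadr had none. The E-box was present in at least 1 promoter of 13 of the 25 genes, or 52%, against 22.6% of the 27025 genes in the table. By promoter, 17 of 38 held it, or 44.7%, against 20.2% of all 32851 promoters of the same length; windows of 1 gene can overlap, as those of Crb3, Marveld2 and Ocln do, and then count the same box more than once. Of the 12 tested genes with the box, 7 were lower and 2 higher in Actr3 KO against control, 3 lower and 6 higher in dKO against Actr3 KO, and 5 lower and 5 higher with the drug against without. Against control, 4 were lower and 2 higher in dKO, and 8 lower and 2 higher in treated cells. The shares called were 75%, 75%, 83.3%, 50% and 83.3% in that order, beside 69.8%, 65.7%, 65.5%, 67.1% and 65.1% of all genes. The palindrome AACCGGTT, bound by Grainyhead-like factors and read the same on both strands, was in 0 of the 38 and in 0.146% of all promoters; neither motif contains the other. These are matches of letters in a window of 300 bases and not mapped binding sites.

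Cldn4 had 33651, 34706 and 36013 normalized counts with ciliobrevin D, 39630, 45587 and 38345 in dKO, 17816.5, 20605 and 19288 in Actr3 KO, and 44496, 56068 and 53800 in control. The Actr3 KO libraries were the lowest and stood apart from every other group, and only dKO and control overlapped. Cldn4 was 2.67-fold lower in Actr3 KO than in control (log2 -1.41 ± 0.09 SE, limma adjusted p = 6.16e-12), or -1.16 with chromosome medians removed. It was 2.14-fold higher in dKO than in Actr3 KO (1.10 ± 0.09, limma adjusted p = 3.70e-10), or 0.68 on the log2 scale once the median change of each chromosome was removed. With ciliobrevin D it was 1.81-fold higher than without (0.86 ± 0.09, limma adjusted p = 1.76e-08), or 0.63 with chromosome medians removed. Against control it was lower in dKO (-0.32, limma adjusted p = 0.00252, or -0.02 and not called under quantile normalization) and in treated cells (-0.56, limma adjusted p = 7.80e-06).

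Cldn3 had 4974, 5814 and 5601 normalized counts with ciliobrevin D, 10169, 11233 and 10094 in dKO, 2738, 3185 and 2922 in Actr3 KO, and 6229, 7295 and 7090 in control. The 4 groups did not overlap, and the order of the levels placed dKO above control. Cldn3 was 2.33-fold lower in Actr3 KO than in control (log2 -1.22 ± 0.07 SE, limma adjusted p = 3.33e-12), or -0.97 and under 2-fold with chromosome medians removed. It was 3.56-fold higher in dKO than in Actr3 KO (1.83 ± 0.07, limma adjusted p = 5.84e-15) and 1.85-fold higher in treated than in untreated Actr3 KO cells (0.89 ± 0.07, limma adjusted p = 5.83e-10). With chromosome medians removed Cldn3 came to 1.42 in dKO and 0.67 in treated cells against Actr3 KO. In dKO it was also above control (0.61, limma adjusted p = 1.38e-07), whereas treated cells were below control (-0.33, limma adjusted p = 0.000350). The last 44 bases of Cldn3 overlap the long noncoding gene Wbscr25, which averaged 32.9 normalized counts in dKO and 12.2 in Actr3 KO, and no source names the strand setting of the counting.

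The genes around this pair were examined in a window of 250 kb on each side, which was chosen after the values of the pair were known. Of 15 neighbours in the table, 11 were tested. In Actr3 KO against control 3 were higher and 4 lower, with a median log2 fold change of -0.08, where 34.4% of all genes were higher and 35.4% lower. In dKO against Actr3 KO 9 were higher and 1 was lower, with a median of 0.74, where 32.5% of all genes were higher and 33.2% lower. Among them, the hydrolase gene Abhd11 had a mean of 2164 normalized counts in dKO and 1024 in Actr3 KO (log2 1.09, limma adjusted p = 2.13e-09). With ciliobrevin D 4 were higher and 4 lower, with a median of -0.03, where 32.7% of all genes were higher and 32.9% lower. Chromosome 5 as a whole, with 871 tested genes, had a median of -0.24 in Actr3 KO against control, 0.39 in dKO against Actr3 KO and 0.22 with the drug against without it; the part of copy number or any other source in these medians was not tested.

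**Figure D2:**
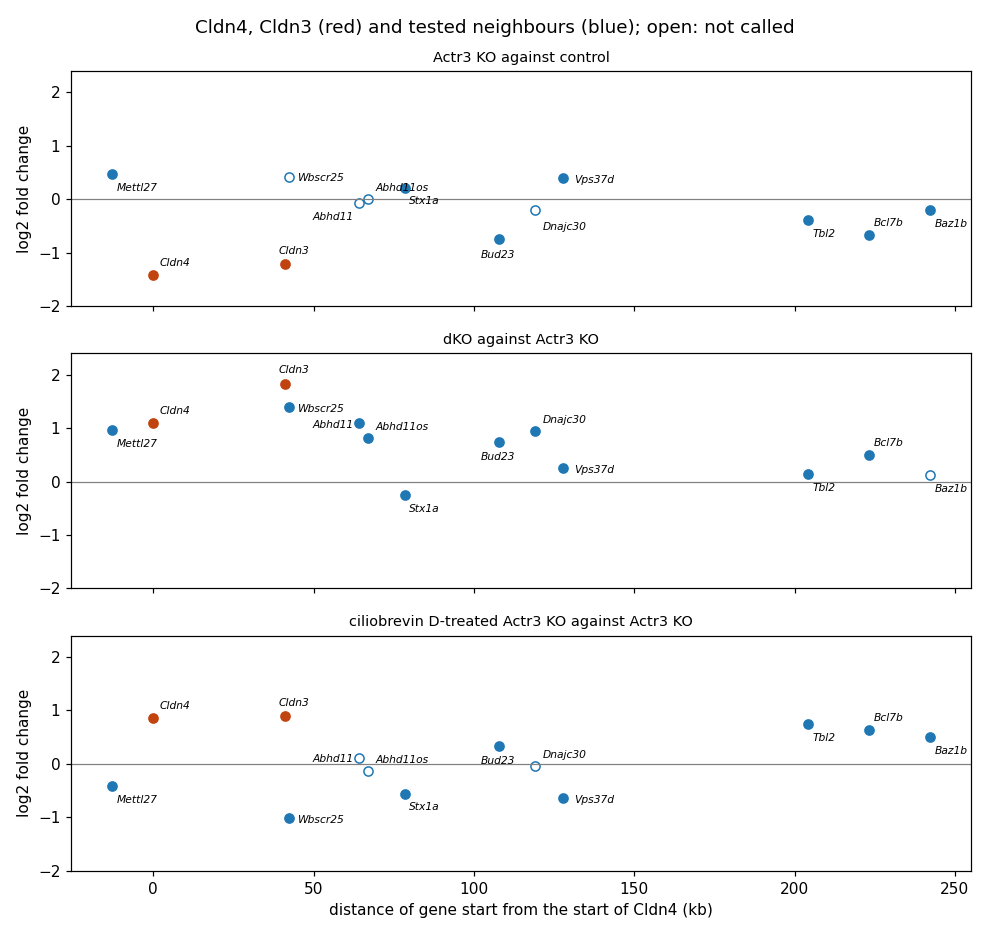
Log2 fold change (limma) of Cldn4, Cldn3 and their tested neighbours against the distance of each gene start from the start of Cldn4 in kb, in 3 comparisons; open points did not pass an adjusted p of 0.05. In dKO against Actr3 KO 9 of 11 neighbours were higher together with the pair (median 0.74), whereas in the other 2 comparisons the neighbours lay on both sides of 0. Over all genes 32.5% were higher in dKO against Actr3 KO.

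The pore claudin Cldn2 (chrX:139800808-139811386) had 243, 168 and 118 normalized counts with ciliobrevin D, 77.1, 92.5 and 99.1 in dKO, 281, 301 and 321 in Actr3 KO, and 1160, 1141 and 1189 in control. Control libraries were far above the rest, dKO libraries were the lowest, and no groups overlapped. Cldn2 was 3.86-fold lower in Actr3 KO than in control (log2 -1.95 ± 0.16 SE, limma adjusted p = 1.01e-09). It was lower again in dKO than in Actr3 KO by 3.35-fold (-1.74 ± 0.16, limma adjusted p = 6.53e-09) and in treated than in untreated cells by 1.78-fold (-0.83 ± 0.16, limma adjusted p = 0.000146). Against control the difference came to 12.9-fold in dKO and 6.86-fold in treated cells, both lower.

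Cldn8 (chr16:88560826-88563183), a collecting duct claudin that partners with Cldn4 in a strand selective for anions, had 31.3, 14.8 and 6.66 normalized counts with ciliobrevin D, 80.9, 83.2 and 90.3 in dKO, 243, 188 and 173 in Actr3 KO, and 834, 1008 and 880 in control. The 4 groups lay on separate levels, with treated cells lowest and the most uneven. Cldn8 was 4.51-fold lower in Actr3 KO than in control (log2 -2.17 ± 0.29 SE, limma adjusted p = 1.22e-06). With ciliobrevin D it was 12.7-fold lower than without (-3.67 ± 0.29, limma adjusted p = 6.77e-10, or -4.19 to -3.15 under the alternatives). In dKO it was 2.34-fold lower than in Actr3 KO (-1.23 ± 0.29, limma adjusted p = 0.000983), or -0.80 on the log2 scale with chromosome medians removed. Against control it was 10.6-fold lower in dKO and 57.5-fold lower in treated cells (log2 -5.84 ± 0.29, limma adjusted p = 6.86e-13, or -6.36 to -5.32 under the alternatives).

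Cldn9 (chr17:23682584-23684026) had 44.5, 46.9 and 29.99 normalized counts with ciliobrevin D, 127, 125 and 128 in dKO, 62.6, 96.3 and 71.8 in Actr3 KO, and 262, 190 and 242 in control. Control was highest and treated cells lowest, and no groups overlapped. Cldn9 was 3.01-fold lower in Actr3 KO than in control (log2 -1.59 ± 0.18 SE, limma adjusted p = 8.78e-08), higher in dKO than in Actr3 KO (0.74 ± 0.18, limma adjusted p = 0.00111) and lower in treated than in untreated cells (-0.91 ± 0.18, limma adjusted p = 0.000136). In treated cells it was 5.65-fold lower than in control.

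Cldn23 (chr8:35824709-35826559) had 59.0, 61.7 and 44.4 normalized counts with ciliobrevin D, 227, 261 and 286 in dKO, 83.4, 100 and 81.4 in Actr3 KO, and 58.1, 71.3 and 96.1 in control. The dKO libraries stood alone at the top, and control overlapped both Actr3 KO groups. Cldn23 was 2.89-fold higher in dKO than in Actr3 KO (log2 1.53 ± 0.17 SE, limma adjusted p = 1.08e-07) and 3.45-fold higher than in control. In treated cells it was lower than in untreated ones (-0.68 ± 0.17, limma adjusted p = 0.00172). Its difference of -0.43 between treated cells and control (limma adjusted p = 0.0369) came to -0.28 without the third treated library (0.178), to -0.24 without the unnumbered control library (0.257) and to -0.45 without control replicate 3 (0.0583), all limma adjusted p. It was also lost with no filter, a fit of only these groups, or the replicate block (limma adjusted p = 0.158). Between Actr3 KO and control it did not pass (0.26, limma adjusted p = 0.196), but came to 0.45 without the unnumbered control library (limma adjusted p = 0.0320).

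The other claudins with more than 500 normalized counts in each library were Cldn1, Cldn7 and Cldn12. Cldn1, a sealing claudin best known from skin, averaged 746 ± 103 with ciliobrevin D, 823 ± 12.0 in dKO, 1018 ± 63.8 in Actr3 KO and 750 ± 13.2 in control (SD, n = 3 each). It was higher in Actr3 KO than in control (log2 0.44, limma adjusted p = 4.46e-05) and lower with the drug than without it (-0.45, limma adjusted p = 3.39e-05). In dKO against Actr3 KO it was lower (-0.30) but at 0.12 with chromosome medians removed. Cldn7 averaged 5626 ± 214 with the drug, 6391 ± 123 in dKO, 6234 ± 243 in Actr3 KO and 8570 ± 974 in control. It was lower than control in all 3 other groups, by 0.42 to 0.60 on the log2 scale. Its change of -0.15 with the drug against without (limma adjusted p = 0.0494) passed no more when the second or the third treated library, or Actr3 KO replicate 1 or 2, was left out (limma adjusted p 0.0704 to 0.171). The call was also lost with a pseudocount of 0.5, no filter, TMM, the replicate block, chromosome medians removed, edgeR or DESeq2 (adjusted p 0.0503 to 0.139), whereas quantile normalization gave -0.35 and a call.

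Cldn12 averaged 3206 ± 54.1 normalized counts with ciliobrevin D, 4126 ± 57.3 in dKO, 3017 ± 68.3 in Actr3 KO and 5133 ± 211 in control. It was lower in Actr3 KO than in control (log2 -0.77, limma adjusted p = 1.02e-11) and higher in dKO than in Actr3 KO (0.45, limma adjusted p = 3.78e-08), though at 0.04 and no longer called with chromosome medians removed. With the drug it differed by 0.09 from untreated cells (limma adjusted p = 0.111), or -0.13 and called with chromosome medians removed. Cldn12 and Cldn15 also lie on chromosome 5.

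Cldn15, a pore claudin of the gut, stayed under 20 normalized counts in every library. Its means were 18.5 with ciliobrevin D, 8.83 in dKO, 5.01 in Actr3 KO and 15.1 in control. It was lower in Actr3 KO than in control (log2 -1.55, limma adjusted p = 0.00112) and higher with the drug than without (1.84, limma adjusted p = 0.000242), and at 0.83 did not pass in dKO against Actr3 KO (limma adjusted p = 0.0610) unless dKO replicate 1 (0.0439) or Actr3 KO replicate 1 (0.0131) was left out or quantile normalization was used (limma adjusted p = 0.00641). Cldn19, known from the thick ascending limb, had means of 21.7 with the drug, 4.40 in dKO, 31.6 in Actr3 KO and 24.9 in control. The dKO libraries, at 2.79 to 6.47, were below all others, and the change against Actr3 KO was -2.63 on the log2 scale with a pseudocount of 1 (limma adjusted p = 8.33e-07) and -1.96 with a pseudocount of 5. Cldn6 reached 7.44 normalized counts in 1 dKO library and at most 3.70 in the others. Cldn10 was detected in 1 treated and 1 control library and Cldn16 in 1 control library, each under 2 normalized counts.

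**Figure D3:**
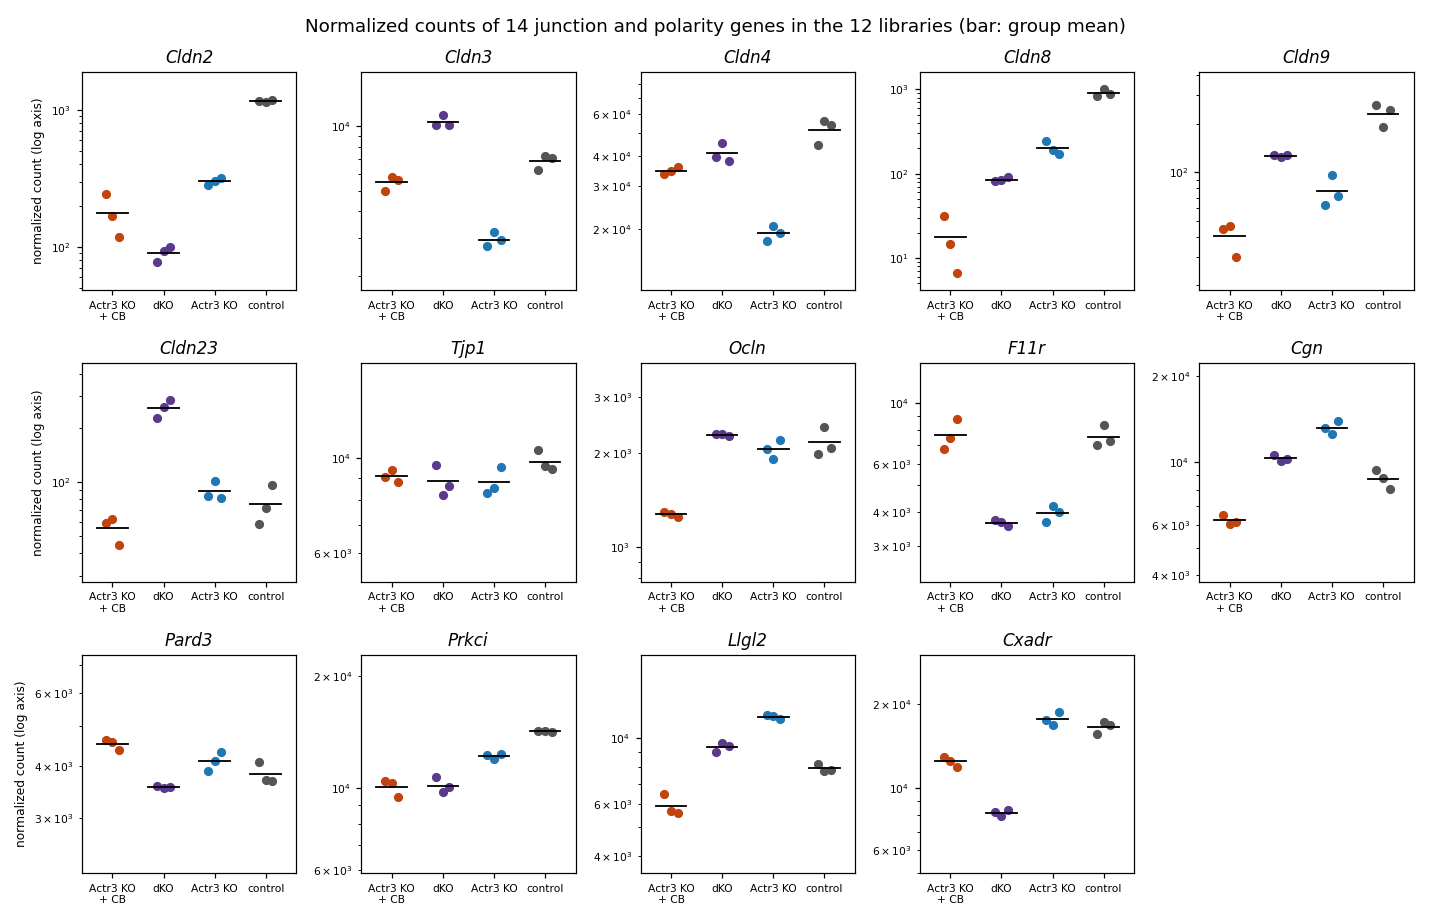
Normalized counts (log axis, a scale of its own for each gene) of 14 tight junction and polarity genes in each of the 12 libraries, by group; bars are group means (n = 3). Cldn2 and Cldn8 have no overlap between any groups and are highest in control, Cldn3 and Cldn23 are highest in dKO, and Tjp1 differs little.

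Levels of different genes can be compared only per length, so values were divided by the summed exon length. This length covers the exons of all isoforms annotated in GENCODE, overlaps counted once, such as 1.82 kb for Cldn4 and 14.5 kb for Pard3. Which isoforms were present was not examined, so the order of genes per kb depends on this choice. The 14 claudins together came to 27431 ± 749 normalized counts per kb with ciliobrevin D, 35743 ± 2678 in dKO, 17347 ± 846 in Actr3 KO and 40511 ± 4378 in control (SD, n = 3 each). The Actr3 KO sum was the lowest, with 16534 to 18223 per kb against at least 26603 in any library of another group. Cldn4 held 69.8 ± 0.763% of the sum with ciliobrevin D, 63.4 ± 1.16% in dKO, 61.0 ± 1.51% in Actr3 KO and 69.9 ± 0.854% in control. Cldn3 held 15.8 ± 0.934% with the drug, 23.3 ± 0.362% in dKO, 13.5 ± 0.369% in Actr3 KO and 13.5 ± 0.368% in control. Thus dKO had the highest share of Cldn3, and Actr3 KO and control did not differ in it beyond their spread.

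Cldn7 held 10.5 ± 0.696% with ciliobrevin D, 9.20 ± 0.518% in dKO, 18.5 ± 1.53% in Actr3 KO and 10.9 ± 0.242% in control, so the share was largest in the group where the summed level was lowest. Cldn12 held between 2.74% in dKO and 4.12% in Actr3 KO. Cldn2 held 0.195% with the drug, 0.0756% in dKO, 0.522% in Actr3 KO and 0.871% in control, and Cldn8 held 0.0276% with the drug, 0.101% in dKO, 0.496% in Actr3 KO and 0.953% in control. The shares are descriptions without a test.

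**Figure D4:**
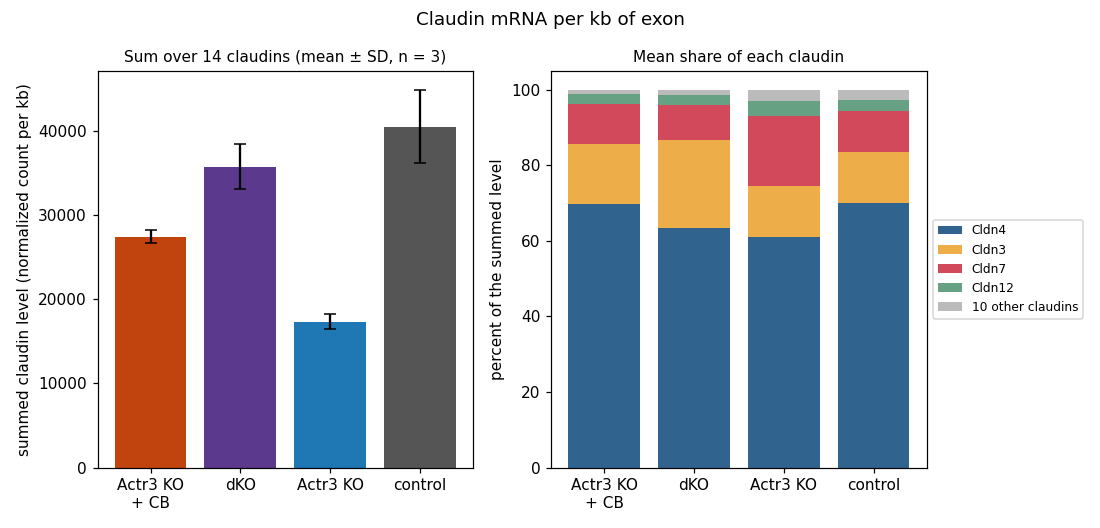
Left, the summed level of 14 claudins in normalized counts per kb of exon (bars, mean ± SD, n = 3 libraries) by group; right, the mean percentage of that sum held by each claudin. The sum is 17347 per kb in Actr3 KO and 40511 in control, and the Cldn3 share is 23.3% in dKO against 13.5% in Actr3 KO.

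In Actr3 KO the levels per kb were highest for Cldn4 (10593 ± 768) and Cldn7 (3200 ± 125). Next were Llgl2 at 2445 ± 35.0, Cxadr at 2384 ± 130, Cldn3 at 2342 ± 179, Prkci at 2197 ± 39.9 and Cgn at 2195 ± 112. The spread of Cldn3 held the means of Llgl2, Cxadr, Prkci and Cgn, so their order around Cldn3 is not settled. In control the order after Cldn4 (28334 ± 3377) was Cldn3 at 5458 ± 449, Cldn7 at 4399 ± 500, F11r at 2833 ± 262, Prkci at 2561 ± 14.7 and Cxadr at 2235 ± 109. Tjp1 had 1126 to 1259 normalized counts per kb as group means.

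Occludin (Ocln, chr13:100496504-100552718), the MARVEL protein of the strand, had 1297, 1275 and 1244 normalized counts with ciliobrevin D, 2288, 2301 and 2259 in dKO, 2060, 1909 and 2202 in Actr3 KO, and 1987, 2408 and 2077 in control. The treated libraries lay below all others, and control overlapped dKO and Actr3 KO. Ocln was 1.61-fold lower with the drug than without (log2 -0.69 ± 0.07 SE, limma adjusted p = 8.41e-09) and 1.69-fold lower than in control. In Actr3 KO against control it did not pass (-0.07, limma adjusted p = 0.376). In dKO it exceeded Actr3 KO by a log2 difference of 0.15 (limma adjusted p = 0.0456), a call lost when any dKO library or Actr3 KO replicate 1 or 2 was left out (0.0757 to 0.227), with no filter, with DESeq2, or with chromosome medians removed (log2 0.03). In dKO against control it did not pass (0.09, limma adjusted p = 0.252) unless control replicate 3 was left out (0.17, limma adjusted p = 0.0270) or quantile normalization was used (0.15, limma adjusted p = 0.0475).

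Its relatives moved the same way with the drug. Marveld2, the tricellulin of the corners where cells meet, averaged 902 ± 152 normalized counts with ciliobrevin D, 1468 ± 9.61 in dKO, 1611 ± 116 in Actr3 KO and 1501 ± 87.4 in control. It was lower with the drug than without (log2 -0.85, limma adjusted p = 1.84e-08) and lower than in control (-0.75, limma adjusted p = 1.37e-07). In the other comparisons it did not pass, though dKO against Actr3 KO came to -0.26 and passed with chromosome medians removed. Marveld3 averaged 1309 ± 32.9 with the drug, 1765 ± 88.3 in dKO, 1613 ± 58.2 in Actr3 KO and 1506 ± 45.8 in control. It was lower with the drug than without (-0.30, limma adjusted p = 6.56e-05), and its call in dKO against Actr3 KO (0.13, limma adjusted p = 0.0459) was lost without dKO replicate 2 or 3 or Actr3 KO replicate 2 or 3, and also with no filter, quantile normalization (0.0566), DESeq2 (0.0510) or the replicate block (0.0633), all adjusted p.

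F11r had 6768, 7460 and 8757 normalized counts with ciliobrevin D, 3722, 3653 and 3542 in dKO, 3652, 4188 and 3994 in Actr3 KO, and 7015, 8336 and 7285 in control. Its levels fell into a high one in treated and control cells, which overlapped, and a low one in dKO and Actr3 KO, which also overlapped. F11r was 1.91-fold lower in Actr3 KO than in control (log2 -0.93 ± 0.08 SE, limma adjusted p = 8.31e-10) and 2.07-fold lower in dKO than in control (-1.05 ± 0.08, limma adjusted p = 1.45e-10). With ciliobrevin D it was 1.93-fold higher than without (0.95 ± 0.08, limma adjusted p = 8.35e-10). Treated cells against control gave 0.02 ± 0.08 (limma adjusted p = 0.853), and dKO against Actr3 KO -0.11 ± 0.08 (limma adjusted p = 0.202).

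Cxadr (chr16:78301226-78359785), the coxsackie and adenovirus receptor of the junction, had 12966, 12463 and 11920.5 normalized counts with ciliobrevin D, 8240, 7973 and 8330 in dKO, 17479, 16767 and 18669 in Actr3 KO, and 15634, 17196 and 16787 in control. The dKO libraries were the lowest, treated cells lay between, and Actr3 KO overlapped control. Cxadr was 2.15-fold lower in dKO than in Actr3 KO (log2 -1.11 ± 0.06 SE, limma adjusted p = 6.21e-13), or -0.68 with chromosome medians removed. It was 1.42-fold lower with the drug than without (-0.50 ± 0.06, limma adjusted p = 1.21e-07), and did not pass in Actr3 KO against control (0.09, limma adjusted p = 0.154), where quantile normalization gave 0.26 and a call.

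Cxadr, Cldn8 and Cldn1 lie on chromosome 16, whose 431 tested genes had a median log2 fold change of -0.41 in dKO against Actr3 KO. In the same comparison the median was -0.39 on chromosome 3, with Cgn, Magi3 and Prkci, 0.39 on chromosome 5, with 4 claudins, and 0.40 on chromosome 10, with Tjp3. After these medians were removed, Cldn3, Cldn4, Cldn8 and Cxadr kept their direction and call, whereas Cldn1, Tjp3, Cgn and Prkci changed sign. The part of line differences in these chromosome-wide shifts was not tested.

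**Figure D5:**
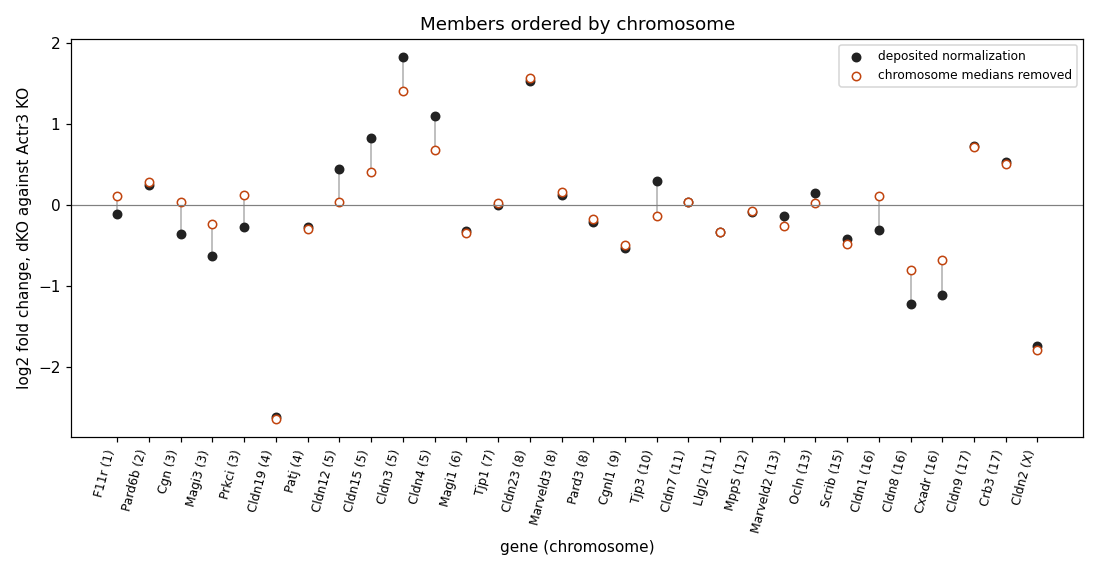
Log2 fold change in dKO against Actr3 KO of the 30 tested genes, ordered by chromosome (number in brackets), with the deposited normalization (filled) and with the median of each chromosome removed (open). Genes on chromosomes 3, 5, 10 and 16 shift most; Cldn3 stays at 1.42 and Cxadr at -0.68, whereas Cgn comes to 0.04.

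Among the plaque proteins, Tjp1 (ZO-1, chr7:65296165-65527850), the main scaffold under the strand, had 9060, 9372 and 8814 normalized counts with ciliobrevin D, 9668, 8232 and 8596 in dKO, 8317, 8542 and 9528 in Actr3 KO, and 10445, 9587 and 9464 in control. Values were close throughout, and control overlapped dKO and Actr3 KO. Tjp1 was lower in Actr3 KO than in control by 0.16 on the log2 scale (± 0.06 SE, limma adjusted p = 0.0308), but at 0.01 under quantile normalization, and the call was lost without Actr3 KO replicate 1 or 2 or control replicate 1 (0.0977 to 0.142), with no filter and with the replicate block (0.0540). In dKO against control it was at -0.16 (limma adjusted p = 0.0373), or 0.05 under quantile normalization, and lost its call without dKO replicate 2 or 3 or control replicate 1 (0.116 to 0.190) and with no filter, TMM (0.0611), edgeR (0.0647) or the replicate block (0.0627). In dKO against Actr3 KO (0.01) and with the drug against without (0.05, or -0.16 and called under quantile normalization) it did not pass.

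Tjp3 (ZO-3) averaged 940 ± 34.4 normalized counts with ciliobrevin D, 1616 ± 62.4 in dKO, 1315 ± 36.1 in Actr3 KO and 953 ± 30.8 in control. It was higher in Actr3 KO than in control (log2 0.46, limma adjusted p = 2.97e-07) and lower with the drug than without (-0.48, limma adjusted p = 1.98e-07), and treated cells did not pass against control (-0.02). In dKO it was above Actr3 KO by 0.30, but at -0.14 with chromosome medians removed. Tjp3 overlaps the neighbouring gene Apba3 by 60 bases.

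Cingulin (Cgn, chr3:94760069-94787725), which links the junction to actomyosin, had 6519, 6079 and 6144 normalized counts with ciliobrevin D, 10626, 10107.5 and 10268 in dKO, 13183, 12559 and 13902 in Actr3 KO, and 9411, 8770 and 8071 in control. No groups overlapped, with Actr3 KO highest and treated cells lowest. Cgn was 1.51-fold higher in Actr3 KO than in control (log2 0.60 ± 0.06 SE, limma adjusted p = 1.20e-08). With ciliobrevin D it was 2.114-fold lower than without (-1.08 ± 0.06, limma adjusted p = 1.44e-12) and 1.40-fold lower than in control (limma adjusted p = 3.50e-07). In dKO it was lower than in Actr3 KO (-0.35 ± 0.06, limma adjusted p = 1.92e-05), but at 0.04 with chromosome medians removed.

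Its paralog Cgnl1 averaged 4395 ± 219 normalized counts with ciliobrevin D, 4946 ± 226 in dKO, 7145 ± 621 in Actr3 KO and 4762 ± 349 in control. Actr3 KO was above every other group: by a log2 difference of 0.58 over control (limma adjusted p = 7.49e-08), with dKO at -0.53 (limma adjusted p = 3.62e-07) and treated cells at -0.70 against it (limma adjusted p = 6.47e-09). Treated cells did not pass against control (-0.11, limma adjusted p = 0.129) unless the unnumbered control library was left out (-0.17, limma adjusted p = 0.0472) or quantile normalization was used (-0.20). The membrane-associated scaffolds Magi1 and Magi3 differed from each other. Magi1 averaged 2078 ± 17.5 with the drug, 1683 ± 46.7 in dKO, 2103 ± 86.3 in Actr3 KO and 2477 ± 135 in control. Against control it was lower in Actr3 KO (-0.24, but 0.17 with chromosome medians removed), in dKO (-0.56, or -0.18 with chromosome medians removed) and in treated cells (-0.25, but 0.20 with chromosome medians removed). Magi3 averaged 4516 ± 159 with the drug, 2227 ± 108 in dKO, 3436 ± 101 in Actr3 KO and 3118 ± 109 in control. It was higher with the drug than without (0.39, limma adjusted p = 1.03e-06, or 0.21 under quantile normalization) and lower in dKO than in Actr3 KO (-0.63, limma adjusted p = 1.01e-09, or -0.23 with chromosome medians removed). Its call in Actr3 KO against control (0.14, limma adjusted p = 0.0210) was lost without Actr3 KO replicate 3 or control replicate 3.

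In the Par complex, Pard3 (chr8:127063381-127612286), its scaffold, had 4632, 4577 and 4384 normalized counts with ciliobrevin D, 3581, 3547 and 3569 in dKO, 3907, 4123 and 4341 in Actr3 KO, and 4093, 3703 and 3687 in control. The dKO libraries were lowest, the treated libraries highest, and Actr3 KO overlapped control. Pard3 was lower in dKO than in Actr3 KO (log2 -0.21 ± 0.05 SE, limma adjusted p = 0.00177) and higher in treated cells than in control (0.24 ± 0.05, limma adjusted p = 0.000438). With the drug against without it was at 0.14 (limma adjusted p = 0.0296), or -0.05 under quantile normalization, and the call was lost without treated replicate 1 or 2 or Actr3 KO replicate 1 or 2 (0.0611 to 0.151). In Actr3 KO against control it did not pass (0.11, limma adjusted p = 0.0783) unless Actr3 KO replicate 1 (0.0342) or control replicate 1 (0.0165) was left out or quantile normalization was used (log2 0.21).

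Prkci (chr3:30995742-31052740), the atypical protein kinase C of the complex, had 10467, 10298 and 9435 normalized counts with ciliobrevin D, 10697, 9738 and 10035 in dKO, 12311, 11938 and 12332 in Actr3 KO, and 14230, 14291 and 14129 in control. Control was highest, Actr3 KO lay between, and treated and dKO cells overlapped at the bottom. Prkci was lower in Actr3 KO than in control (log2 -0.22 ± 0.05 SE, limma adjusted p = 0.00105, or -0.08 and not called under quantile normalization) and lower with the drug than without (-0.28 ± 0.05, limma adjusted p = 0.000124, or -0.45 under quantile normalization). In dKO it was lower than in Actr3 KO (-0.26 ± 0.05, limma adjusted p = 0.000201), but at 0.13 with chromosome medians removed. Against control it was at -0.49 in dKO, or -0.04 and not called with chromosome medians removed, and at -0.50 in treated cells. Pard6b, the adaptor between Cdc42 and the kinase, averaged 6263 ± 335 with the drug, 4937 ± 92.8 in dKO, 4140 ± 197 in Actr3 KO and 5331 ± 190 in control. It was lower in Actr3 KO than in control (-0.37, limma adjusted p = 3.09e-06) and higher in dKO (0.25, limma adjusted p = 0.000244) and in treated cells (0.60, limma adjusted p = 3.16e-09) than in Actr3 KO.

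The Crumbs complex members did not move together. Mpp5 (Pals1), its adaptor, averaged 5242 ± 444 normalized counts with ciliobrevin D, 2915 ± 187 in dKO, 3086 ± 85.3 in Actr3 KO and 3875 ± 172 in control. It was lower in Actr3 KO than in control (log2 -0.33, limma adjusted p = 7.30e-05) and higher with the drug than without (0.76, limma adjusted p = 7.56e-10). Patj, the multi-PDZ scaffold, averaged 3114 ± 147 with the drug, 3825 ± 134 in dKO, 4641 ± 402 in Actr3 KO and 3563 ± 265 in control. It was higher in Actr3 KO than in control (0.38, limma adjusted p = 1.97e-05) and lower with the drug than without (-0.57, limma adjusted p = 9.30e-08); its change of -0.19 in treated cells against control (limma adjusted p = 0.0121) passed no more without treated replicate 3 or control replicate 1. Crb3, the transmembrane Crumbs protein of epithelia, averaged 1543 ± 72.3 with the drug, 2253 ± 142 in dKO, 1557 ± 54.0 in Actr3 KO and 2113 ± 194 in control. It was lower in Actr3 KO than in control (-0.44, limma adjusted p = 5.16e-06), higher in dKO than in Actr3 KO (0.53, limma adjusted p = 3.92e-07), and did not pass with the drug against without (-0.01).

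In the basolateral Scribble complex, Llgl2 (chr11:115824029-115855780), the epithelial Lethal giant larvae protein, had 6487, 5680 and 5611 normalized counts with ciliobrevin D, 9001, 9676 and 9455 in dKO, 11977, 11896 and 11651 in Actr3 KO, and 8184, 7771 and 7831 in control. No groups overlapped, and the order from Actr3 KO through dKO and control to treated cells was that of Cgn. Llgl2 was 1.49-fold higher in Actr3 KO than in control (log2 0.58 ± 0.06 SE, limma adjusted p = 1.02e-08). With ciliobrevin D it was 2.002-fold lower than without (-1.002 ± 0.06, limma adjusted p = 2.60e-12), and in dKO 1.26-fold lower than in Actr3 KO (-0.34 ± 0.06, limma adjusted p = 2.12e-05). Scrib, the scaffold of the complex, averaged 12371 ± 801 with the drug, 7699 ± 176 in dKO, 10321 ± 414 in Actr3 KO and 10261 ± 510 in control. It did not pass in Actr3 KO against control (0.01, limma adjusted p = 0.896, or 0.17 and called under quantile normalization), was lower in dKO than in Actr3 KO (-0.42, limma adjusted p = 1.23e-06) and higher with the drug than without (0.26, limma adjusted p = 0.000415, or 0.09 and not called under quantile normalization).

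Other genes of the junction and of polarity were taken from 2 further lists. Of 23 tested tight junction genes outside the 33, 11 were higher and 6 lower in Actr3 KO against control, 3 higher and 12 lower in dKO against Actr3 KO, and 8 higher and 6 lower with the drug against without. This was 73.9%, 65.2% and 60.9% called, against 69.8%, 65.7% and 65.5% of all genes. Their median log2 fold changes were 0.14, -0.36 and 0.04 in that order of comparisons. Amotl2, an angiomotin that binds actin and YAP at the junction, averaged 6481 ± 764 normalized counts with ciliobrevin D, 10560 ± 125 in dKO, 17263 ± 759 in Actr3 KO and 9951 ± 408 in control. It was higher in Actr3 KO than in control (log2 0.79, limma adjusted p = 8.57e-10) and lower with the drug than without (-1.42, limma adjusted p = 1.22e-13). Its relative Amot was lower in dKO (-0.71) and with the drug (-0.79) than in Actr3 KO. Ybx3 (ZONAB), a factor that ZO-1 binds, averaged 6586 ± 253 with the drug, 6727 ± 201 in dKO, 3776 ± 302 in Actr3 KO and 7457 ± 75.9 in control, and was lower in Actr3 KO than in control (-0.98, limma adjusted p = 2.32e-12). Ybx3 lies on chromosome 6, whose 638 tested genes had a median of -0.42 in that comparison. The junctional adhesion molecule Jam3 was lower in Actr3 KO than in control (-1.71), with means of 32.4 ± 2.24 in Actr3 KO and 109 ± 13.7 in control, whereas the scaffold Magi2 was higher (0.75). Vapa was higher in dKO (0.64) and with the drug (0.73) than in Actr3 KO.

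Of 31 tested polarity genes outside the 33, 12 were higher and 7 lower in Actr3 KO against control, 6 higher and 14 lower in dKO against Actr3 KO, and 8 higher and 13 lower with the drug against without, or 61.3%, 64.5% and 67.7% called, against 69.8%, 65.7% and 65.5% of all genes. Cdc42, the GTPase that activates the Par complex, averaged 7316 ± 323 normalized counts with ciliobrevin D, 8499 ± 214 in dKO, 4898 ± 404 in Actr3 KO and 8711 ± 196 in control. It was 1.78-fold lower in Actr3 KO than in control (log2 -0.83 ± 0.06 SE, limma adjusted p = 4.49e-11), 1.74-fold higher in dKO than in Actr3 KO and 1.496-fold higher with the drug than without. Crb2, a Crumbs paralog, averaged 63.5 ± 24.5 with the drug, 162 ± 10.6 in dKO, 400 ± 22.1 in Actr3 KO and 156 ± 13.3 in control. It was 2.56-fold higher in Actr3 KO than in control (1.36 ± 0.18, limma adjusted p = 6.30e-07) and 6.51-fold lower with the drug than without (-2.70 ± 0.18, limma adjusted p = 2.28e-11). The Crumbs-linked genes Mpp7 (0.88) and Lin7c (-0.51) went opposite ways in Actr3 KO against control. Frmd4a was lower in dKO than in Actr3 KO (-1.17) and Frmd4b lower with the drug than without (-0.85), while the kinase gene Stk11 (LKB1) was higher in dKO (0.45) and its partner Cab39 higher with the drug (0.46). Stk11 lies on chromosome 10, whose 655 tested genes had a median of 0.40 in dKO against Actr3 KO.

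Of 18 tested regulators known to act on junction gene transcription, 3 were higher and 8 lower in Actr3 KO against control, 7 higher and 5 lower in dKO against Actr3 KO, and 7 higher and 6 lower with the drug against without. The shares called, 61.1%, 66.7% and 72.2% in that order, lay near those of all genes (69.8%, 65.7% and 65.5%). Zeb1, a repressor that binds the E-box shown above, had 702, 805 and 732 normalized counts with ciliobrevin D, 182, 172 and 168 in dKO, 460, 453 and 451 in Actr3 KO, and 149, 127 and 157 in control. It was highest in treated cells, and no groups overlapped. Cldn3 (log2 0.89), Cldn4 (0.86) and F11r (0.95), whose boxes are shown, were higher with the drug than without. They were picked from genes with that call, so their direction says nothing about the box. Of the 12 tested genes with the box, 5 were higher and 5 lower there, or 83.3% called against 65.5% of all genes. Any part of Zeb1 in these changes was not tested. Zeb1 was 3.15-fold higher in Actr3 KO than in control (log2 1.65 ± 0.09 SE, limma adjusted p = 1.91e-12) and 2.60-fold lower in dKO than in Actr3 KO (-1.38 ± 0.09, limma adjusted p = 3.51e-11). Its paralog Zeb2 averaged 723 ± 77.5 with the drug, 81.8 ± 11.7 in dKO, 184 ± 23.7 in Actr3 KO and 338 ± 16.7 in control, and was 3.91-fold higher with the drug than without (limma adjusted p = 5.71e-12). Snai1 stayed under 34 normalized counts and Snai2 under 1 in every library.

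Twist2 averaged 1325 ± 145 normalized counts with ciliobrevin D, 639 ± 23.0 in dKO and 381 ± 41.5 in Actr3 KO, and was higher with the drug (log2 1.79, limma adjusted p = 6.26e-13) and in dKO (0.75, limma adjusted p = 3.96e-07) than in Actr3 KO. Among activators of epithelial genes, Grhl2 averaged 1937 ± 185 with the drug and 3074 ± 48.6 without (-0.67, limma adjusted p = 1.78e-09), and Ehf averaged 812 ± 159 with the drug and 1917 ± 57.4 without (-1.26, limma adjusted p = 9.32e-11). Grhl3 averaged 115 ± 22.9 in dKO, 64.8 ± 7.62 in Actr3 KO and 238 ± 15.4 in control, and was lower in Actr3 KO than in control (-1.86, limma adjusted p = 3.29e-10). Klf5 was lower (-1.003) and Tfcp2l1, a collecting duct factor, higher (0.57) in Actr3 KO than in control.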

How the data were processed

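Per the labels' protocols, polyadenylated RNA was made into libraries with a NEBNext Ultra II RNA kit. The builds mm10 and GRCm38 and the tools DESeq2 2.11.40.7, featureCounts 2.0.1, HISAT2 2.2.1 and fastp 0.23.2 are named in the submitters' processing notes. The deposited table holds normalized counts, that is, a signal equal to the count over 1 size factor per library: 100% of values in each column were whole multiples of 1 step within 0.01 reads, so reads could be recovered. Chi-square over its degrees of freedom was 4.30 to 16.1 between replicates, above sampling noise, so none was merged. RefSeq GRCm38.p6 named 25275 of 27179 gene IDs.

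The 13939 genes that reached 10 in 3 or more libraries were fitted as log2(value + 1) with limma 3.58.1 in R 4.3.3 (trend, 12 libraries in 1 fit, two-sided), Benjamini-Hochberg adjusted over all of them. Fold changes are on that scale, so those of low genes depend on it. The steps were tested on simulated data. Every library is given for members with a mean of at least 50 in a group that changed at least 2-fold, and for Tjp1, Ocln, F11r, Prkci and Pard3; from the other lists, per comparison the 2 highest and 2 lowest called genes (higher mean 100 or more) are named, with Snai1 and Snai2 added after their values were seen. Members and lists were chosen with earlier results of these data known. Alternatives were pseudocounts 0.5 and 5, other filters, quantile normalization, TMM, DESeq2 1.42.0 or edgeR 4.0.16 on recovered counts, fits of 2 groups, a replicate block, a 2-fold threshold, each library left out and chromosome medians removed.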

Additional observations from a re-analysis of the deposited data

How the results depend on the processing

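Of 2540 log2 fold changes of the tested genes under the alternatives other than the 2-fold threshold, 2446 stayed on their side of the threshold with no called value changing sign, 59 lost and 24 gained a call, and 11 changed sign while called before or after the change. Quantile normalization turned Tjp1 in Actr3 KO against control (0.013), in dKO against control (0.047) and with ciliobrevin D against untreated cells (-0.16), and Pard3 with ciliobrevin D (-0.053). Removing chromosome medians turned Magi1 in Actr3 KO (0.17) and in treated cells (0.20) against control, Cldn1 (0.12), Tjp3 (-0.14), Cgn (0.038) and Prkci (0.13) in dKO against Actr3 KO, and Cldn12 with ciliobrevin D (-0.13); the cause was not tested. Under quantile normalization 11 of the 30 junction and polarity genes were higher in Actr3 KO and 10 in dKO against control. Over all genes 9719 were then called in Actr3 KO and 9407 in dKO, of which 51.6% and 54.9% were higher. Under the deposited normalization 49.3% and 47.7% of the called genes were higher, so the share of higher calls rose over all genes too. At 2-fold, which is stricter by construction, 1691 genes were called in Actr3 KO and 1736 in dKO against control, 1325 in dKO and 1302 with ciliobrevin D against Actr3 KO, and 1470 in treated cells against control; of the junction and polarity genes 0, 1, 3, 1 and 0 were higher and 6, 5, 4, 3 and 3 lower, in that order. Without division by length, Cldn3 held 10.9% of the claudin sum with ciliobrevin D, 16.5% in dKO, 8.88% in Actr3 KO and 9.15% in control, Cldn4 held 64.7% in dKO, 58.0% in Actr3 KO and 68.4% in control, and Cldn7 held 10.1% in dKO and 11.4% in control. Same-numbered libraries did not deviate together (correlations -0.0415 to 0.0668), so the numbers are no pairing; with the replicate number as a block and the unnumbered control left out, 9080 genes were called in Actr3 KO and 8749 in dKO against control, 9158 in dKO and 9118 with ciliobrevin D against Actr3 KO, and 8378 in treated cells against control, within 1.5 times of the counts without it (9724, 9350, 9164, 9136 and 9071 in that order). Cldn15 and Cldn19, under 42 normalized counts, are limited by depth.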
